A study of Schizosaccharomyces pombe with 4 samples.

Results

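The measurement described here is how far each transcript changed between 1.5 h and 3 h of meiosis in fission yeast cells without pht1, compared with the change in wild type. The pht1 gene encodes H2A.Z, a variant of histone H2A. For each gene, the wild-type change (3 h minus 1.5 h, log2) was subtracted from the change in the pht1 deletion, over all 4 arrays and all named genes. Of 2899 named genes, 2400 had at least 1 array above its 25th percentile, the floor used here, and 499 had none. The arrays hold 1 sample per group, so the difference of the changes carries no test and no replicate check, and a gene was counted when it reached 1 log2 unit (2-fold) either way.

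The 4 groups were pht1 deletion diploids at 3 h and at 1.5 h after nitrogen withdrawal, and wild-type diploids at the same 2 times. All of them were h+/h- and carried ade6-210/216, his5-303/+ and leu1-32/+. The deletion diploids also carried pht1D::ura4+ on both homologues and ura4-D18 on both, and the wild-type diploids did not, so the genotypes differ at ura4 too. The labels do not say whether the times of a genotype came from 1 culture.

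Nitrogen starvation makes fission yeast leave the mitotic cycle. The transcription factor Ste11 then switches on pheromone, receptor and mating genes, and the RNA-binding protein Mei2 disables Mmi1, a factor that destroys many meiotic transcripts in growing cells. Genes of chromosome pairing and recombination come up with premeiotic DNA replication. Genes of the meiotic divisions and of spore formation follow later, many of them driven by the forkhead factor Mei4. H2A.Z is placed in nucleosomes near promoters by the SWR1 complex.

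The pht1 probe set read 7.36 at 3 h and 7.37 at 1.5 h in the deletion, against 12.86 and 12.70 in wild type, which fits the labels. One log2 unit above its deletion level, 8.37, is called near background below, since a value under it may not follow the transcript. The ura4 probe set read 11.89 and 12.00 in the deletion at 3 h and 1.5 h, against 12.38 and 12.70 in wild type. Array medians lay between 11.23 and 11.27.

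For most genes the changes of the genotypes lay close together, and the differences past 2-fold were mainly smaller rises in the deletion. The difference of the changes had a median of 0.02 over the 2400 genes, and the middle 95% of genes lay between -0.78 and 0.49. A difference of -1 or less was found for 43 genes (1.79%) and one of 1 or more for 12 genes (0.5%). At 1.5 units the counts were 15 and 1, and at 0.5 units they were 103 (4.29%) and 59 (2.46%). Of the 55 genes counted, 42 were damped, which means that wild type changed by at least 0.5 units and the deletion changed less in the same direction or by under 0.5 units. Of these, 39 were rises and 3 were falls. The change was gained in 9, present in the deletion with under 0.5 units in wild type. It was enlarged in 2 and reversed in 2. With the floor required on all 4 arrays, 18 and 3 genes of 2092 were counted. The RNA came from whole cultures, in which more cells at a stage and more RNA per cell cannot be told apart.

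The difference of the changes equals the gap between the genotypes at 3 h minus the gap at 1.5 h. For a damped rise, the value of the deletion minus that of wild type was therefore lower at 3 h than at 1.5 h. All 39 genes with a damped rise were higher in the deletion than in wild type at 1.5 h, and 30 of them were still higher at 3 h. Each of these differences uses the 1 wild-type array at 1.5 h. Wild type had 76 genes (3.17%) with a rise of 2-fold or more, and 73 of these had the smaller change in the deletion. That selection favours high wild-type changes. The deletion had 55 genes (2.29%) with such a rise, and 35 of these still had the smaller change in the deletion. Among 60 genes selected on the mean of both changes, 52 did, with medians of 1.35 in the deletion and 2.01 in wild type.

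**Figure D1:**
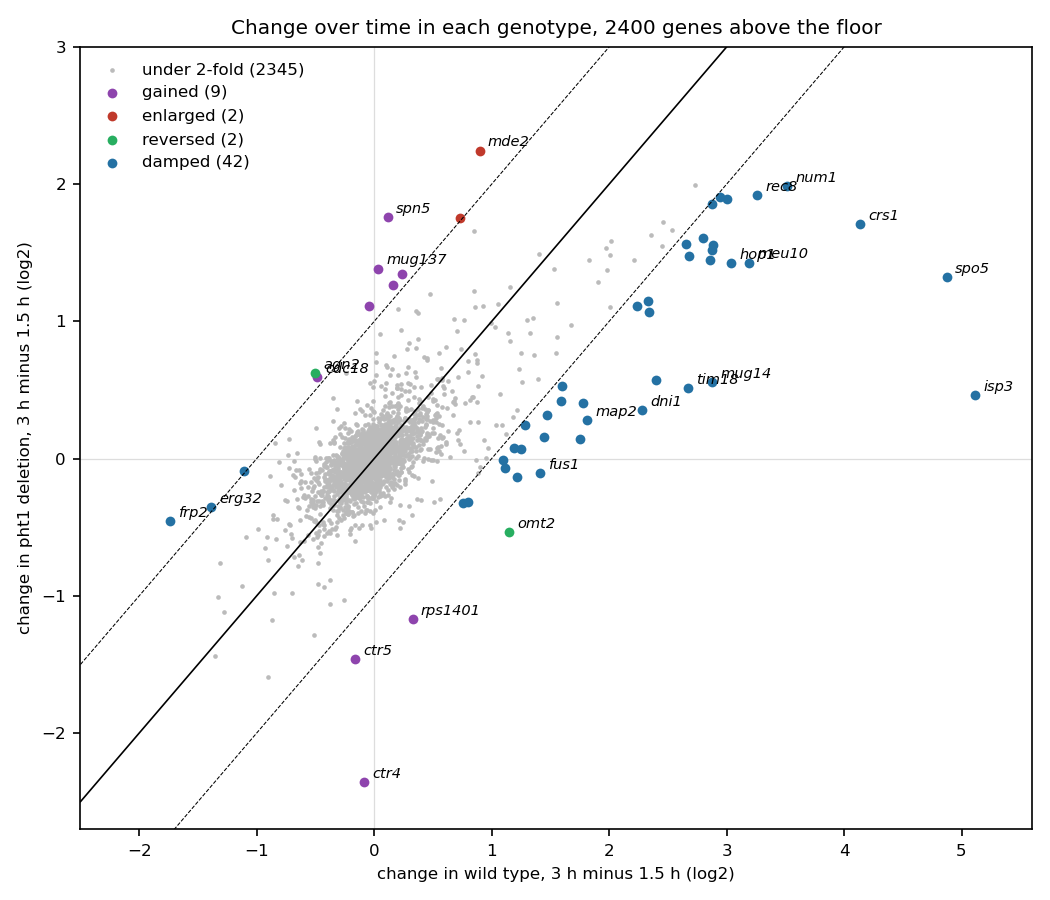
Change over time in the pht1 deletion (vertical axis) against the change in wild type (horizontal axis), in log2 units, for 2400 genes above the floor, 1 point per gene. The solid line marks equal changes and the dashed lines a difference of 1 unit. Most coloured points are damped rises (39 genes) below the lower dashed line, while ctr4 fell in the deletion alone and spn5 and mde2 lie above the upper line.

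Pheromone and mating genes past 2-fold were already high at 1.5 h in the deletion and changed by under 0.6 units after that, whereas in wild type 11 of the 12 rose by 2-fold or more. Over the whole lists, wild-type rises of 2-fold or more were fewer, with 5 of 13 pheromone genes, 2 of 14 signalling genes and 7 of 9 fusion genes. The 12 mating genes past 2-fold changed by a median of 0.15 in the deletion, between -0.32 and 0.53, and by a median of 1.46 in wild type. At 1.5 h the deletion already lay at or above the wild-type 3 h value for 9 of the 12. The values that selected these genes are the same ones, so this describes them and supports nothing further. Fission yeast mates by way of P-factor and M-factor, small peptides sensed by receptors of the partner cell.

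The P-factor gene map2 read 14.67 and 14.38 in the deletion at 3 h and 1.5 h, against 13.78 and 11.97 in wild type. The M-factor gene mfm3 read 14.53 and 14.37 in the deletion, against 14.25 and 12.81 in wild type. For both genes the wild-type 1.5 h array stood apart below the other 3. The changes were 0.28 in the deletion and 1.81 in wild type for map2, and 0.16 and 1.45 for mfm3. The other M-factor genes followed with smaller differences, -0.63 for mfm1 and -0.41 for mfm2.

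The receptor gene map3, for M-factor, read 12.70 and 12.28 in the deletion at 3 h and 1.5 h, against 11.04 and 9.45 in wild type. Both deletion values lay above both wild-type values, and the changes were 0.42 and 1.59. The P-factor receptor gene mam2 read 14.02 and 14.01 in the deletion and 14.12 and 13.17 in wild type, a difference of the changes of -0.94. It did not reach 2-fold, and its deletion values were close to the wild-type 3 h value.

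Genes that process or export the pheromones were all below 0. The gene of Sxa2, a carboxypeptidase that degrades P-factor, read 13.65 and 13.50 in the deletion at 3 h and 1.5 h, against 13.00 and 11.25 in wild type. Its changes were 0.15 in the deletion and 1.75 in wild type. The methyltransferase gene mam4 was at -1.18 and the M-factor exporter gene mam1 at -0.96, and in both wild type at 3 h was the highest of the 4 arrays. The protease genes krp1 and sxa1 were nearer to 0, at -0.29 and -0.24. All 13 measured genes of the pheromone list were below 0, where 46.5% of all genes were. Of the 13, 5 were past 2-fold, against 1.79% of all genes at -1 or less. The list median was -0.94, with a median change of 0.07 in the deletion and 0.90 in wild type. Several of these probe sets read near the top of the scale, where the array maxima were 14.84 to 14.89, and the part of the scale in the small deletion changes was not tested. Leaving out the genes with any value over 14, a choice made after seeing the data, gave a median of -0.73 over 8 genes.

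The signalling pathway behind the receptors had smaller differences. Its 14 genes above the floor had a median of -0.58, with 12 below 0, where 46.5% of all genes were. Past 2-fold was gap1, for the GTPase-activating protein of Ras1, with 10.20 and 10.52 in the deletion at 3 h and 1.5 h and 10.67 and 9.91 in wild type. It was lower at 3 h in the deletion and higher at 3 h in wild type. Just short of 2-fold were spk1 (-0.99), the MAP kinase gene, and ste6 (-0.94), for the activator of Ras1. The regulator gene rgs1 was at -0.84, the adaptor gene ste4 at -0.80 and the G protein alpha subunit gene gpa1 at -0.71. The kinase genes byr2 (-0.48) and byr1 (-0.46) and the GTPase gene ras1 (-0.33) were closer to 0, and efc25 (0.41), for another activator of Ras1, was above it.

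Cell adhesion and fusion genes included dni1, with the largest difference of the mating group. It encodes a membrane protein of cell fusion and read 12.65 and 12.29 in the deletion at 3 h and 1.5 h, against 12.14 and 9.85 in wild type. The fusion formin gene fus1 read 11.84 and 11.94 in the deletion, against 11.43 and 10.02 in wild type. In both cases the deletion was above wild type at both times, with changes of 0.36 for dni1 and -0.11 for fus1. The differences were -1.93 for dni1 and -1.52 for fus1. They were -1.17 for dni2, -1.15 for prm1 (a fusion protein of the plasma membrane), -1.12 for the adhesin gene mam3 and -1.07 for the adhesin gene map4. Of the 9 genes of this list above the floor, 6 were past 2-fold downward and 1 upward, the ascus glucanase gene agn2. Over all genes the shares were 1.79% downward and 0.5% upward. The nuclear fusion gene tht1 was at -0.38, with 1.45 in the deletion and 1.83 in wild type.

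The regulators upstream of these genes did not reach 2-fold. The Ste11 gene read 13.56 and 13.49 in the deletion at 3 h and 1.5 h, against 13.46 and 12.50 in wild type, and its difference was -0.89. The wild-type 1.5 h array was again the low one. Differences were -0.91 for rep1, an activator of early meiotic transcription, -0.88 for pat1, for the kinase that holds meiosis back, and -0.51 for mei2. None of the 18 meiotic entry genes above the floor passed 2-fold, and their median was 0.02, equal to that of all genes. The kinetochore list had a median of -0.04 over 14 genes, with 1 past 2-fold, scm3, for the loading factor of centromeric histone. The scm3 gene read 10.61 and 10.62 in the deletion at 3 h and 1.5 h, against 10.60 and 9.51 in wild type, a difference of -1.11. It lies next to mam3 in the RefSeq gene order.

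**Figure D2:**
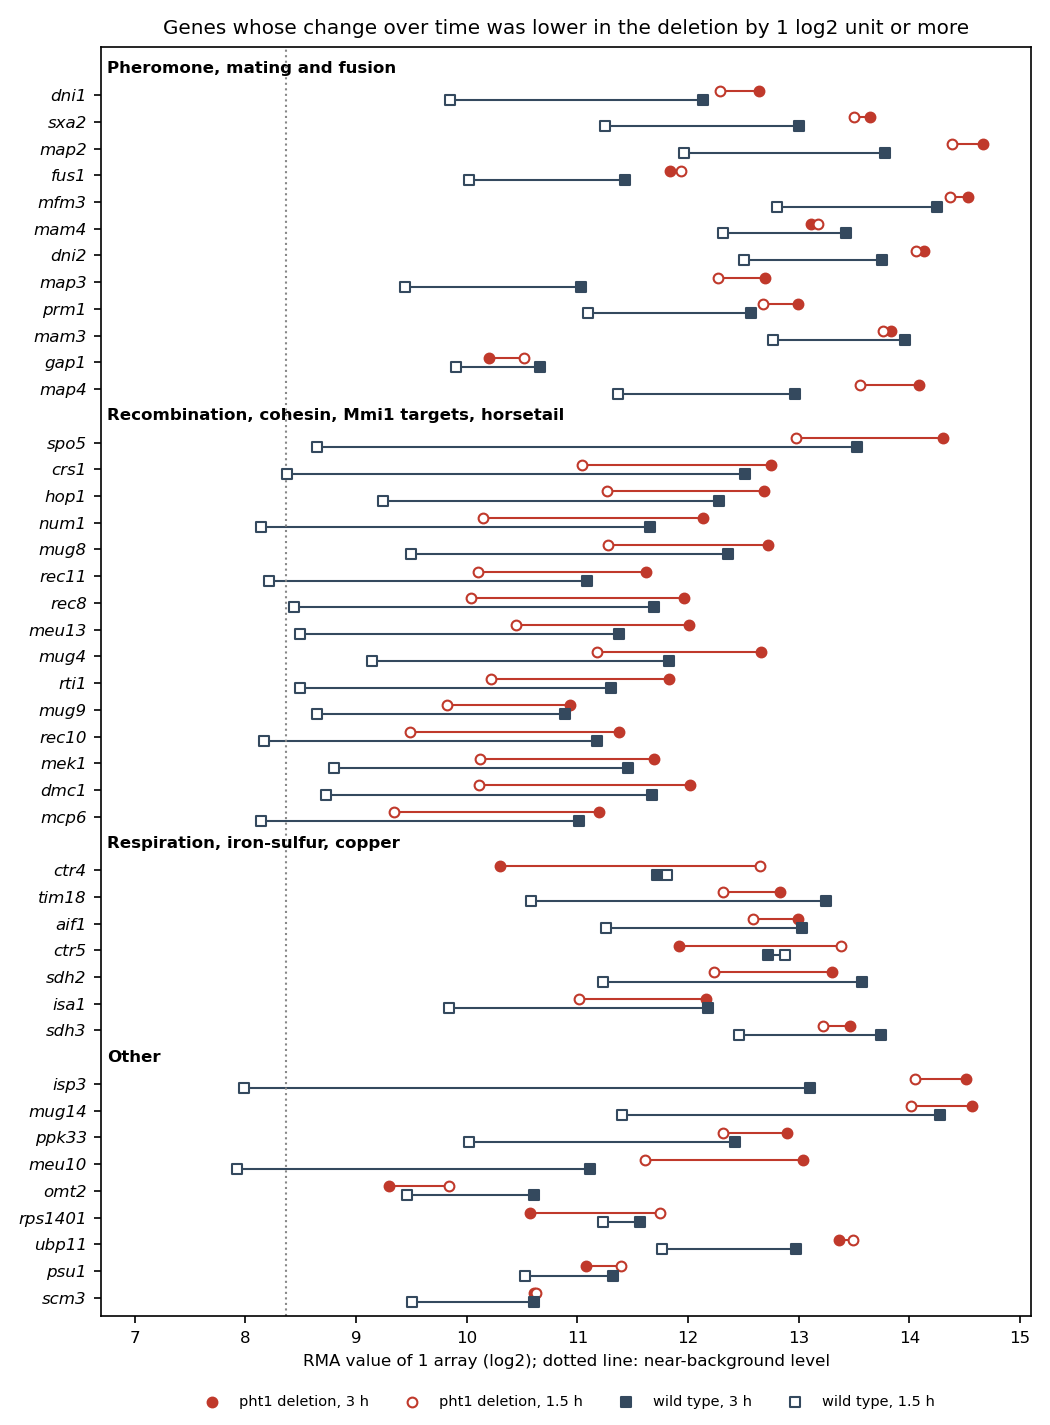
RMA values (log2, horizontal axis) of the 4 arrays for the 43 genes with a difference of the changes of -1 or less, 1 row per gene, with filled points at 3 h, open points at 1.5 h, circles for the deletion and squares for wild type. Among the 12 mating genes the deletion changes by -0.32 to 0.53 units. Among the 15 recombination, cohesin, horsetail and Mmi1-listed genes the deletion still climbs by 1.11 to 1.98 units, from a point between the wild-type values.

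Genes of recombination, cohesin, nuclear movement or the Mmi1 target list showed a second form of damped rise, in which the deletion kept climbing. Outside it was dni2, a listed Mmi1 target counted above with the mating genes, which changed by 0.07 in the deletion and lay above wild type at 3 h already at 1.5 h. The 15 other genes past 2-fold rose by a median of 1.57 in the deletion and 2.89 in wild type. Of them, dmc1, hop1, mek1, mcp6, rec11 and rti1 were not on the Mmi1 list. Each of the 15 had a rise of 2-fold or more in both genotypes. At 1.5 h the deletion lay above wild type for all 15 but below the wild-type 3 h value for all 15. At 3 h the deletion was above wild type for all 15, by a median of 0.37, against 1.78 at 1.5 h. All 4 values of these genes entered their selection.

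The largest differences were those of spo5, for a meiotic RNA-binding protein, and crs1, for a meiotic cyclin. The spo5 probe set read 14.30 and 12.98 in the deletion at 3 h and 1.5 h, against 13.53 and 8.65 in wild type. The crs1 probe set read 12.75 and 11.04 in the deletion, against 12.52 and 8.38 in wild type. Wild type at 1.5 h lay far below the other 3 arrays for both. The spo5 value at 3 h in the deletion lay near the top of the scale. The changes were 1.32 and 4.88 for spo5 and 1.71 and 4.14 for crs1, in the deletion and wild type in that order. Transcripts described as Mmi1 targets had a median difference of -1.17 over 15 genes above the floor. Of these, 10 were past 2-fold downward, against 1.79% of all genes, and 13 were below 0, against 46.5%. The exceptions were tcg1 (0.08) and mei4 (0.09). The Mei4 gene read 10.45 and 9.20 in the deletion at 3 h and 1.5 h and 9.32 and 8.16 in wild type, so its rise was 1.25 in the deletion and 1.16 in wild type, where the 1.5 h value was near background. The median was -0.94 over all 21 measured members without the floor.

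Linear elements are the chromosome axes on which fission yeast recombination takes place. The axis gene hop1 read 12.69 and 11.26 in the deletion at 3 h and 1.5 h, against 12.28 and 9.24 in wild type. The kinase gene mek1, which acts with the axis to steer repair to the homologue, read 11.69 and 10.12 in the deletion and 11.46 and 8.80 in wild type. In both genes the deletion value at 1.5 h stood between the wild-type values. The differences were -1.62 for hop1 and -1.09 for mek1. They were -1.11 for rec10, -0.76 for rec25 and -0.62 for mug20. All 5 above the floor were thus below 0, where 46.5% of all genes were, with a median of -1.09. The wild-type 1.5 h values of rec10 and rec25 were near background, so those wild-type rises are lower limits and the differences may be larger.

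The genes of break formation divided. Of 4 above the floor, rec15 (-0.74, from a near-background value) and rec6 (-0.41) were below 0, and rec14 (0.16) and mde2 (1.35) above it. The rec12 gene, for the enzyme that makes the breaks, was not above the floor and was at -0.07, with rises of 0.91 in the deletion and 0.98 in wild type. The mde2 gene, which links axes to the break machinery, is described with the larger changes below.

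Among cohesin and strand exchange genes, those past 2-fold were meiosis-specific members, but other genes with a wild-type rise did not pass it. The cohesion gene sgo1 rose by 0.96 in the deletion and 1.03 in wild type, and the strand exchange gene mcp7 by 1.13 and 1.56. The cohesin gene rec8 read 11.96 and 10.04 in the deletion at 3 h and 1.5 h, against 11.70 and 8.44 in wild type, a difference of -1.34. Its partner rec11 was at -1.35, from a near-background wild-type value. The remaining cohesion genes lay between -0.61 (mis4, the cohesin loader) and 0.38 (rad21, the mitotic counterpart of rec8), and the list median was -0.13 over 13. The recombinase gene dmc1 read 12.02 and 10.11 in the deletion and 11.68 and 8.73 in wild type, a difference of -1.04. It was -1.33 for meu13, a partner of Dmc1, and -1.19 for rti1, a meiotic homologue of rad52. The other 18 genes of the list lay between -0.70 (sfr1) and 0.57 (exo1), among them rlp1 (-0.53), rad50 (-0.34), rad54 (-0.10) and fbh1 (0.12). The list median was -0.23 over 21, with 3 past 2-fold downward, against 1.79% of all genes.

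Horsetail movement, in which dynein pulls the nucleus back and forth while homologues pair, was represented by num1 and mcp6. The num1 gene, for the cortical anchor of dynein, read 12.13 and 10.15 in the deletion at 3 h and 1.5 h, against 11.66 and 8.14 in wild type. The difference was -1.53, and -1.02 for mcp6, both from near-background wild-type values. Other dynein genes were dli1 (-0.86) and dhc1 (-0.43), and the bouquet gene bqt1 was at -0.72. The telomere genes taz1 (-0.31) and rap1 (0.00) moved little. The list median was -0.26 over 14. The remaining genes of the 15 were mug8 (-1.41), mug4 (-1.20) and mug9 (-1.13), genes named for their rise in meiosis.

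**Figure D3:**
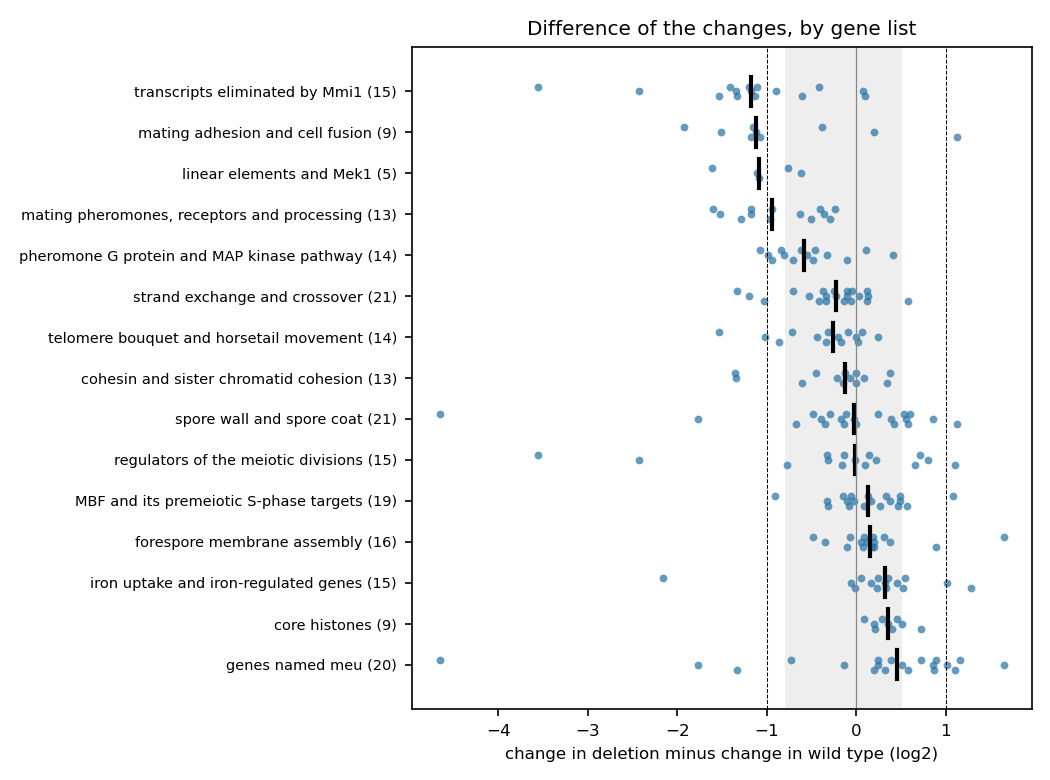
Difference of the changes (deletion minus wild type, log2) for the members of 15 gene lists above the floor, 1 point per gene, with the list median as a bar and the number of genes in brackets. The grey band holds the middle 95% of all genes (-0.78 to 0.49) and the dashed lines mark 2-fold. Mmi1 targets, mating fusion, linear element and pheromone genes lie to the left (medians -1.17 to -0.94), and core histones (0.35) and genes named meu (0.45) to the right. Lists share members.

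Spore wall genes went in both directions, with 2 past 2-fold below 0 and 1 above it, agn2. The spore coat gene isp3 had the lowest difference of all, with 14.51 and 14.05 in the deletion at 3 h and 1.5 h, against 13.11 and 7.99 in wild type. Its change was 0.46 in the deletion and 5.11 in wild type, where the 1.5 h value was near background. Both deletion values lay near the top of the scale, and the part of the scale in the small deletion change was not tested. The spore wall gene meu10 read 13.04 and 11.61 in the deletion and 11.12 and 7.92 in wild type, a difference of -1.77, also from near background. Both genes were above wild type at both times.

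Of the 12 genes with a difference of 1 or more, 7 rose at least 2-fold in the deletion with a wild-type change under 1 unit. By the lists, 1 belongs to the forespore membrane (spn5), 1 to the meiotic divisions (spo6) and 1 to break formation (mde2), and the rest only to the genes named meu or mug. The meiotic septin gene spn5 had the highest difference of all, 1.65, with 10.65 and 8.88 in the deletion at 3 h and 1.5 h, against 8.41 and 8.30 in wild type. The mde2 gene read 10.66 and 8.42 in the deletion, against 8.48 and 7.58 in wild type. For mde2 the deletion at 1.5 h lay about level with wild type at 3 h, and its rises were 2.25 and 0.90. The spo6 gene, for a subunit of the meiotic kinase Spo4, read 10.81 and 9.46 in the deletion and 7.68 and 7.44 in wild type.

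The differences were 1.35 for mug137, 1.15 for meu25, 1.10 for mug97, 1.10 for spo6 and 1.02 for crp79, for an RNA-binding protein also known as Meu5. The deletion was above wild type at both times in all 7. For spn5, mde2, spo6, crp79, meu25 and mug97 no wild-type value reached the floor. They passed it on deletion arrays alone, so the floor itself favours this direction. In 5 of the 7 both wild-type values were near background, and in all 7 the one at 1.5 h was. A wild-type change may therefore be hidden and no size is settled. Leaving out every gene with a near-background value left 5 genes at 1 or more: agn2, cdc18, erg32, frp2 and sib2.

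Further genes of these lists lay under 1 unit. The prospore membrane gene meu14 was at 0.89, the spore wall amylase homologue gene mde5 at 0.86, the protein kinase gene mde3 at 0.80 and mes1, which restrains the anaphase-promoting complex between the divisions, at 0.71. For mes1 the values were 11.38 and 10.44 in the deletion at 3 h and 1.5 h and 10.18 and 9.95 in wild type, none of them near background. Wall genes with all values clear of background lay on both sides of 0. The glucan synthase genes mok14 (0.59) and bgs2 (0.58) and the glucanase gene eng2 (0.53) were above it, while pvg3 (-0.67), the glucan synthase homologue gene mok12 (-0.48), exg1 (-0.39) and chs2 (-0.35) were below. The genes named meu had a median of 0.45 over 20, with 15 above 0, where 53.5% of all genes were. Only 6 of the 20 had no value near background, and over these 6 the median was 0.28. Some of the 20, such as mug97 and mde5, passed the floor on deletion arrays alone, so the floor itself favours genes high in the deletion. With all 4 arrays above the floor 3 remained, and without a floor the median was 0.35 over 28. The forespore membrane list had a median of 0.15 over 16, with 12 above 0. The spore wall list had one of -0.03 over 21, with 12 below 0, where 46.5% of all genes were. Among genes not above the floor, 7 reached 1 or more and none -1 or less. They included spo4 (1.38), the catalytic partner of spo6, and meu27 (1.33), mug93 (1.32) and ght7 (1.04), all with wild type near background at both times.

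**Figure D4:**
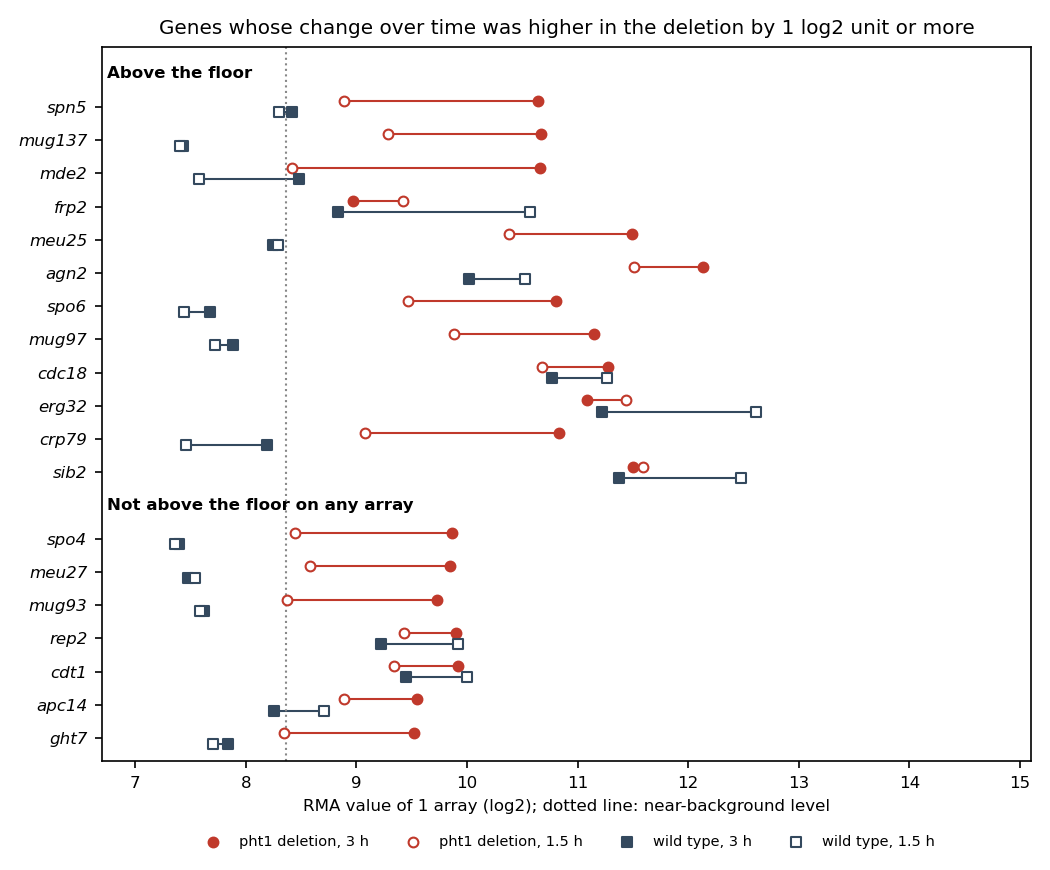
RMA values (log2, horizontal axis) of the 4 arrays for the 12 genes above the floor and the 7 below it with a difference of the changes of 1 or more, with filled points at 3 h, open points at 1.5 h, circles for the deletion and squares for wild type. Genes such as mug137, spo6 and spo4 climb in the deletion while both wild-type points lie left of the dotted near-background level (8.37), and frp2, sib2 and erg32 fall in wild type.

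The ascus glucanase gene agn2, which opens the ascus wall, ran opposite ways. It read 12.13 and 11.51 in the deletion at 3 h and 1.5 h, against 10.02 and 10.52 in wild type. The deletion was higher at both times, and the changes were 0.63 and -0.50, the second at the limit of what was counted as a change. The other reversed gene was omt2, with 9.30 and 9.84 in the deletion and 10.60 and 9.46 in wild type. Wild type at 3 h stood apart above the other 3 arrays, and the changes were -0.54 and 1.15.

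In premeiotic DNA replication 1 gene, a target of the G1/S factor MBF, passed 2-fold. The cdc18 gene, for the loader of the replicative helicase, read 11.27 and 10.68 in the deletion at 3 h and 1.5 h, against 10.77 and 11.26 in wild type. It was higher at 3 h in the deletion by 0.59 and lower in wild type by 0.49. Differences of cdc22 (0.57), for ribonucleotide reductase, nrm1 (0.49) and yox1 (0.47), for MBF repressors, and mrc1 (0.48) did not reach 2-fold. Below the floor, cdt1 (1.13) and rep2 (1.16) crossed in the same way. In the other direction cig2, for the S-phase cyclin, was at -0.32 and rep1 at -0.91. The list median was 0.13 over 19, with 11 above 0, where 53.5% of all genes were.

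Core histone genes had small differences of 1 sign. All 9 were above 0, where 53.5% of all genes were, with a median of 0.35, and none reached 2-fold. The H4 gene hhf1 read 13.36 and 13.13 in the deletion at 3 h and 1.5 h, against 13.37 and 13.86 in wild type. The H3 gene hht1 read 14.14 and 13.88 in the deletion and 14.20 and 14.45 in wild type. For both genes the genotypes were close at 3 h and wild type was the higher one at 1.5 h. The differences ran from 0.08 (hht2) to 0.72 (hhf1), with hht1 at 0.51, hhf3 at 0.45 and the H2A genes hta2 and hta1 at 0.35 and 0.29. The median change was 0.13 in the deletion and -0.25 in wild type. Histone genes are near-identical copies, so their probe sets may share signal.

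**Figure D5:**
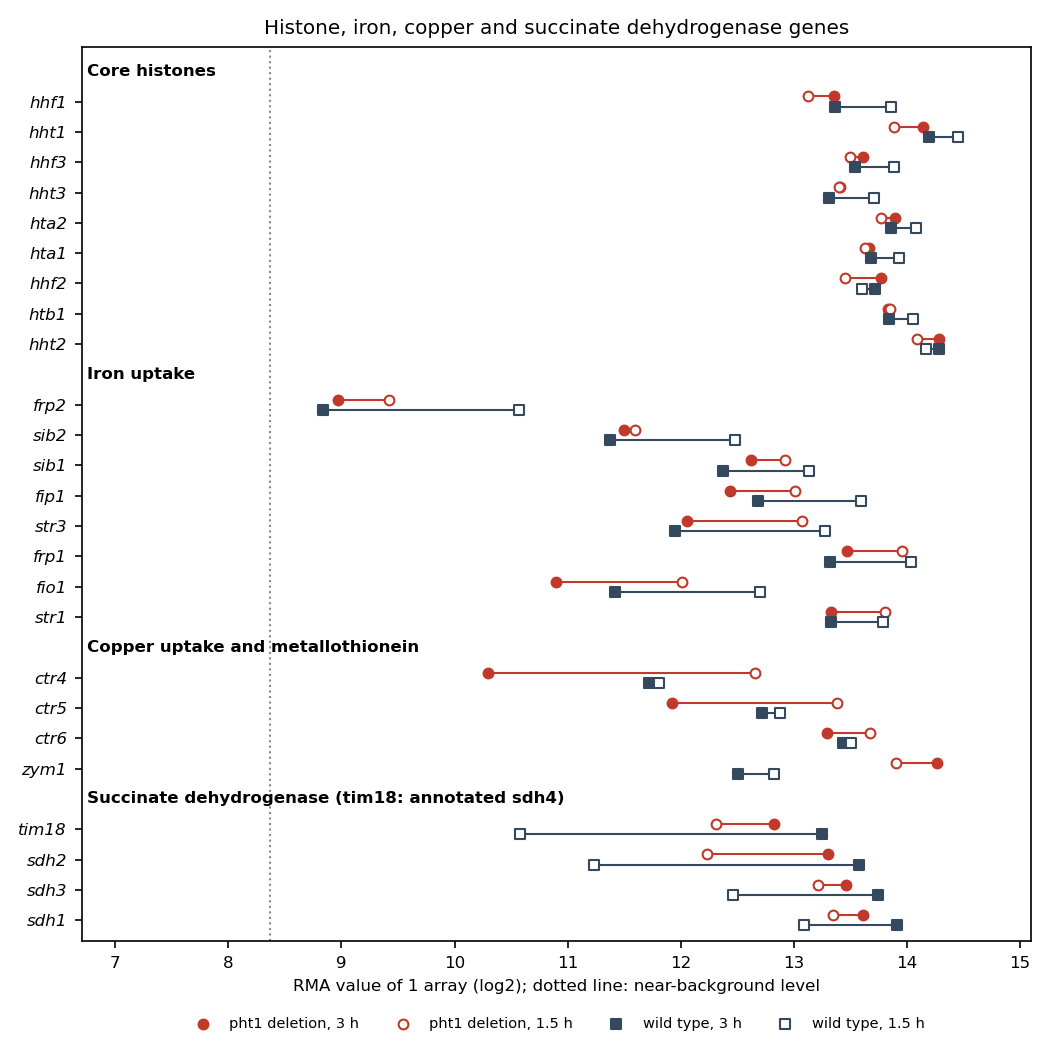
RMA values (log2, horizontal axis) of the 4 arrays for core histone, iron uptake, copper and succinate dehydrogenase genes, with filled points at 3 h, open points at 1.5 h, circles for the deletion and squares for wild type. The copper transporter genes ctr4 and ctr5 change by -2.36 and -1.46 in the deletion, against -0.09 and -0.16 in wild type, and frp2 and sib2 fall less in the deletion than in wild type.

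The succinate dehydrogenase genes sdh1, sdh2 and sdh3 had smaller changes in the deletion, 2 of them by more than 2-fold, as did the probe set that the platform annotation names sdh4 and RefSeq names tim18. This enzyme links the tricarboxylic acid cycle to respiration and carries haem and iron-sulfur clusters. The sdh2 gene, for the iron-sulfur subunit, read 13.30 and 12.23 in the deletion at 3 h and 1.5 h, against 13.57 and 11.23 in wild type. The tim18 probe set read 12.83 and 12.32 in the deletion and 13.25 and 10.58 in wild type. In both cases the deletion stood above wild type at 1.5 h and below it at 3 h. Differences were -2.16 for tim18, -1.28 for sdh2, -1.04 for sdh3 and -0.55 for sdh1.

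The iron-sulfur assembly gene isa1 read 12.16 and 11.01 in the deletion at 3 h and 1.5 h, against 12.18 and 9.84 in wild type, a difference of -1.19. The gene aif1, for a homologue of a mitochondrial apoptosis factor, was at -1.37, with changes of 0.41 and 1.77. Together with sdh2, sdh3 and tim18 these 5 genes had a median gap between the genotypes of 1.17 at 1.5 h and of -0.27 at 3 h, where isa1 (-0.02) and aif1 (-0.04) were about level. These 5 were put together because they had passed 2-fold, so the gaps restate that choice. Other iron-sulfur assembly genes, among them isa2, isu1 and nfs1, did not reach 2-fold. The cytochrome c1 gene cyt1 was at -0.60. The respiration list as a whole had a median of 0.00 over 41 genes, with 20 below 0, where 46.5% of all genes were.

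Iron genes had a median change of -0.45 in the deletion and -0.71 in wild type, and 2 of the falls were damped by more than 2-fold. The ferric reductase gene frp2 read 8.97 and 9.42 in the deletion at 3 h and 1.5 h, against 8.84 and 10.57 in wild type. The siderophore synthesis gene sib2 read 11.50 and 11.59 in the deletion and 11.37 and 12.48 in wild type. In both the genotypes were close at 3 h, and the wild-type 1.5 h array was the high one. The differences were 1.28 and 1.02. They were 0.46 for sib1 (siderophore synthesis), 0.34 for fip1 (iron permease), 0.32 for str3 (siderophore transporter), 0.23 for frp1 and -0.01 for str1. The regulator gene php4, for a repressor of iron-using genes, was at 0.54. The list median was 0.32 over 15, with 12 above 0, where 53.5% of all genes were, and its low member was tim18. The third damped fall was that of erg32, for a sterol desaturase, with 11.08 and 11.44 in the deletion at 3 h and 1.5 h and 11.22 and 12.61 in wild type.

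The copper uptake genes fell in the deletion alone. The ctr4 gene, for a copper transporter, read 10.30 and 12.66 in the deletion at 3 h and 1.5 h, against 11.72 and 11.81 in wild type. Its partner gene ctr5 read 11.92 and 13.38 in the deletion and 12.72 and 12.88 in wild type. Both were higher in the deletion at 1.5 h and lower at 3 h, while wild type moved by -0.09 and -0.16. The vacuolar copper transporter gene ctr6 was at -0.31, and the metallothionein gene zym1 was at 0.68, with 14.27 and 13.90 in the deletion and 12.51 and 12.83 in wild type. The copper and metal list had a median of 0.07 over 14.

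The remaining genes past 2-fold belong to various functions. The mug14 gene read 14.57 and 14.01 in the deletion at 3 h and 1.5 h, against 14.28 and 11.40 in wild type, a difference of -2.33. The kinase gene ppk33 read 12.90 and 12.32 in the deletion and 12.42 and 10.02 in wild type, a difference of -1.82. Wild type at 1.5 h was the low array for both. The deletion values of mug14 lay near the top of the scale. The deubiquitinase gene ubp11 was at -1.35 and the cell wall gene psu1 at -1.12. The ribosomal protein gene rps1401 read 10.57 and 11.74 in the deletion and 11.56 and 11.24 in wild type, with changes of -1.17 and 0.33. Its paralogue rps1402 was at 0.13, and paralogous probe sets may share signal.

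Most growth and housekeeping functions had medians near the 0.02 of all genes, while amino acid and nucleotide synthesis lay somewhat higher. Of 51 lists, 29 held no gene past 2-fold. Medians were 0.01 for the proteasome (29 genes), 0.02 for ribosome biogenesis (40), 0.03 for splicing (67) and 0.00 for glycolysis (17). The share of all genes above 0 was 53.5%, to be set beside the counts that follow. Ribosomal proteins had a median of 0.05, with 92 of 118 above 0. Mitochondrial ribosomal proteins had 32 of 39 above 0 and a median of 0.07, and translation factors with tRNA synthetases 28 of 32 and 0.10. Of the amino acid synthesis genes, 34 of 38 were above 0, with a median of 0.17, led by trp3 (0.58) and his3 (0.56). Nucleotide synthesis had 16 of 20 above 0 and a median of 0.18, led by ade8 (0.60). For trp3 the changes were -0.08 in the deletion and -0.67 in wild type, and for ade8 -0.19 and -0.80. The SWR1 list, which includes pht1, had a median of 0.01 over 14, SAGA -0.01 over 14 and heterochromatin -0.09 over 11. Subunits of the INO80, RSC and SWI/SNF remodellers had one of 0.14 over 23, with 17 above 0 and rsc7 highest, at 0.37.

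The counted genes lay on chromosomes I, II and III, and most of the 12 larger ones lay on II. Of the 43 smaller changes, 20 lay on chromosome I, 14 on II and 9 on III, where 1092, 920 and 385 of the genes above the floor lie. Of the 12 larger ones, 3, 8 and 1 did. Within 5 protein-coding genes of each other lay 4 pairs, mam3 with scm3, isa1 with rec11, ctr4 with mug4, and agn2 with gap1. The last of them had opposite signs. The number of such pairs among genes drawn at random was not computed.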

How the data were processed

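Per the labels' protocols, poly(A) RNA was purified from DNase-treated total RNA and labelled with biotin as cRNA for Affymetrix arrays. The deposited log2 values were made with RMA, per the submitters' processing notes, and the sources used here give neither its version nor which arrays were normalized together. RMA equalizes the arrays, so differences in total mRNA are not measured. Of 4999 probe sets, 2917 had 1 gene symbol in GEO's platform annotation, 20 had several and 2062 had none here. By gene identifier 2914 matched RefSeq (ASM294v3) and 113 symbols were updated. Of 14 genes with several probe sets, the one with the highest mean was used.

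With 1 array per group, the difference of differences leaves no degree of freedom and was not tested. The number of arrays limits the precision. Genes were named by rule: pht1, ura4, the 15 highest and 15 lowest, 5 per class and 4 per list. Further genes past 2-fold and members of lists described were named after their values were seen. The members and 51 gene lists were chosen with earlier results of these data known. After the gene names were matched, 2 list members were removed as wrong (mbx2 from the Mmi1 list, the Ras regulator gap1 from the nitrogen list), hrs1 was removed from the bouquet list, and 2 matches through an older name (to mbx2 and spo9) were dropped. The steps were tested on simulated data. Alternatives covered floor, scaling, probe sets and thresholds. Scripts ran in Python 3.11.15 with pandas 2.3.3 and numpy 2.4.6, lowess came from statsmodels 0.14.6, and plots were drawn with matplotlib 3.10.9. Promoter sequences were not analysed here.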

Additional observations from a re-analysis of the deposited data

Results flagged for a closer look

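In 2 genes above the floor the genotypes changed in opposite directions by at least 0.5 units each. The difference was not tested. For agn2 the difference of the changes was 1.13, with 0.63 in the deletion and -0.50 in wild type. For omt2 it was -1.68, with -0.54 in the deletion and 1.15 in wild type.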

How the results depend on the processing

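No paired analysis was possible because each group holds 1 array, and for the same reason no array could be left out. The 30 genes at the ends of the scale were chosen on these same values, and a floor keeps or drops a gene without changing its value. Where they were kept, their sign held in all 225 recomputed values, which moved by at most 0.13, and this supports nothing further. Dropped genes, such as isp3 and spo5 with all 4 arrays above the floor, have no value under that setting. With all 4 arrays above the floor, 18 genes were smaller and 3 larger by 2-fold, 17 were damped, 4 gained, 0 enlarged and 0 reversed. With the floor at the array median 5 were larger, 5 gained, 0 enlarged and 1 reversed. Without a floor 19 were larger, 14 gained and 3 reversed, and the medians were -0.75 for mating fusion and -0.94 for Mmi1 targets. With no value near background 5 were larger, 4 gained and 0 enlarged. Median centring and lowess each left 1 reversed gene. Counting 1.5-fold differences gave 89 smaller, 41 larger, 86 damped, 5 enlarged and 37 gained. Counting changes from 0.3 gave 6 reversed, and from 1 unit 14 gained, 0 enlarged and 0 reversed. Without values over 14 the pheromone median was -0.73.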

Other observations

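The 2082 probe sets with no single gene name had fewer differences past 2-fold than the named genes. Of 1594 above the floor, 10 (0.627%) had a difference of the changes of -1 or less and 6 (0.376%) one of 1 or more. The values ran from -1.24 to 1.27.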
